A study of Mus musculus with 2 samples.

Results

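Ifitm2, Ifitm3, Bst2, Ifi204, Ifi207, Ifi27l2a, Isg15, Irf7 and Xaf1 are mouse genes linked to the interferon response. They were taken by symbol from both count matrices, where each had 1 row, so the 9 genes stand among 31053 features. Their transcripts were followed across microglia, border-associated macrophages and monocytes of the embryonic brain. Of these 3 gates, monocyte-gated cells held the most Ifitm3 and Ifi27l2a and microglia-gated cells the least in both libraries. Where values come in pairs, the control value stands first. Bst2 was the member with the highest level in microglia-gated cells. Isg15 and Irf7 transcripts were few in microglia-gated cells, and most of the control ones came from 1 cell.

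Type I interferons bind a receptor on the cell surface, which activates the kinases Jak1 and Tyk2 and, through them, transcription factors that bind a short repeated element before many target genes. Target products block viruses in several ways: Ifitm proteins hold up the fusion of virus and endosome membranes, Bst2 (tetherin) ties budding virions to the cell, and Isg15 is a ubiquitin-like protein that is coupled to other proteins. Irf7 is a transcription factor that amplifies interferon production, and Ifi204 and Ifi207 belong to the IFI200 family of nuclear proteins, several of which bind DNA. Xaf1 is an interferon-inducible protein that antagonises the apoptosis inhibitor Xiap. Myeloid cells express some of these genes without infection, and interferon-responsive microglia are known from development and ageing.

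The cells came from the hypothalamic and thalamic region of CD1 mouse embryos at E15.5 and had been sorted for Cd11b together with Cd45, which mark myeloid cells and other cells of blood origin. The control library pooled 10 embryos of 1 wild-type dam. The stressed library pooled 5 embryos of 1 dam that was placed at 4 °C for 30 min on each of 5 days, from E11.5 to E15.5. Each condition is therefore 1 pool in 1 library, so no test between conditions was possible and no difference has a replicate check. Intervals are at 95% and hold only the error of counting, and stress, litter and library cannot be told apart.

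The promoters show the element that links several of these genes. The RefSeq promoter table (GRCm38.p6, 250 bases before to 50 after each gene's start) held 7 of the 9 members, without Ifi204 and Ifi27l2a. The core of the interferon-stimulated response element, searched as GAAA, any 2 bases, GAAA on both strands, lay in 5 of the 7: Ifitm2, Ifitm3, Bst2, Ifi207 and Isg15. It lay in 3.44% of the 32851 promoters in the table. The windows are printed 5′ to 3′ on the gene's strand, which is the minus strand for all 5, and capitals mark the element.
Ifitm2: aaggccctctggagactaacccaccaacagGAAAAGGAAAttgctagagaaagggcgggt
Ifitm3: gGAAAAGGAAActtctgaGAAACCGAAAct
Bst2: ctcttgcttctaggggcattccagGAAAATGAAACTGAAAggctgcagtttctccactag
Ifi207: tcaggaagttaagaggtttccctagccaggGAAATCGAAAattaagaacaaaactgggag
Isg15: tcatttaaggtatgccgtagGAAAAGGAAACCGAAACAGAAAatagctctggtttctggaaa

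The Ifitm2 window is chr7:140955978-140956037, and its element begins 46 bases before the RefSeq start. The Ifitm3 window is chr7:141010714-141010743, with separate copies that begin 2 and 19 bases after the start. The Bst2 window is chr8:71537567-71537626 and holds 2 overlapping copies, 130 and 124 bases before the start. The Ifi207 window is chr1:173741821-173741880, with 1 copy 41 bases before the start. The Isg15 window is chr4:156200855-156200916 and holds 3 overlapping copies, 78, 72 and 66 bases before the start. The Irf7 and Xaf1 promoters held no such letters in the searched span. The core of the interferon-gamma element, searched as TTCNNNGAA, lay in 2 of the 7 promoters, those of Ifitm3 and Bst2, and in 8.30% of all promoters. A match of letters is a description of the sequence and not a binding site.

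In GENCODE M21 on GRCm38 the genes lie on 6 chromosomes. Ifitm2 (7:140954837-140955987) and Ifitm3 (7:141009586-141010770) both lie on the minus strand. Irf7 (7:141262706-141266481) lies on the same chromosome and overlaps Phrf1 of the other strand. Ifi207 (1:173723427-173741747) and Ifi204 (1:173747293-173766943) are neighbours on chromosome 1. Bst2 lies at 8:71534255-71537456, Ifi27l2a at 12:103442167-103443680, Isg15 at 4:156199424-156200818 and Xaf1, on the plus strand, at 11:72301629-72313733. Close relatives share sequence at the 3′ end that the assay reads. Of the 31-base words in the last 500 transcript bases, 31.3% of those of Ifitm2 also occurred in other genes, mostly the overlapping model Gm45717 and Ifitm3. The share was 13.6% for Ifitm3, 13.9% for Ifi207, which shares most of them with Ifi204, 6.0% for Ifi27l2a and 0 for Bst2 and Irf7. Reads from shared stretches may be lost or assigned to a relative, which makes the Ifitm and IFI200 counts uncertain.

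After cells under 500 genes or over 10% mitochondrial UMIs (unique molecules) had been left out, 1068 control and 1407 stressed cells remained. Median depth was 1947.5 UMIs per control barcode and 3767 UMIs per stressed barcode. Marker panels that held none of the 9 genes gated 610 and 1106 microglia, 80 and 30 border-associated macrophages, and 15 and 16 monocytes. P2ry12 stood at 939 and 823 CPM (UMIs of a gene in each 1000000 UMIs of the summed cells) in microglia-gated cells and at 0 in monocyte-gated cells, Mrc1 at 1440 and 1339 CPM in border-associated cells, and Ccr2 at 1010 and 540 CPM in monocyte-gated cells. Ly6c2 had 3 and 8 UMIs in monocyte-gated cells and none in the microglia and border-associated gates. The libraries differed in sex makeup: microglia-gated cells held 164 Y-linked UMIs in control and 1 in stressed cells. The files shared 13 barcodes, deep in one library and shallow in the other, and only 1 shallow copy passed the filter. A gate sums RNA over cells, so fewer expressing cells and less RNA per cell are separated only by the shares of cells given with the levels.

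Ifitm3, an antiviral membrane protein, reached the highest level of any member, in monocyte-gated cells. Its level was 4599 CPM (interval 3922 to 5359) in control and 3836 CPM (3387 to 4329) in stressed monocyte-gated cells. Border-associated cells held 119 CPM (84.1 to 165) and 206 CPM (143 to 288), and microglia-gated cells 15.6 CPM (10.1 to 23.0) and 15.54 CPM (12.3 to 19.4). The order was the same in both libraries and no intervals of neighbours in it overlapped. The monocyte level was 295 times and 247 times the microglia level, and border-associated cells were 7.67 and 13.3 times above microglia. Without the cell with most Ifitm3 in each class the control monocyte over microglia log2 ratio was 9.16, against 8.21 with it, since 1 cell held 13 of the 25 control microglia UMIs. The stressed border-associated value rests on 1 cell that gave 21 of its 34 UMIs.

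Ifitm2, a relative on the same chromosome, had the same order, with smaller monocyte steps. Monocyte-gated cells held 1038 CPM (731 to 1430) in control and 642 CPM (466 to 862) in stressed cells. The border-associated levels were 394 CPM (327 to 470) and 448 CPM (352 to 563). The intervals of these gates overlapped in the stressed library, so their order there is not beyond counting error. Microglia-gated cells held 44.2 CPM (34.5 to 55.8) and 47.2 CPM (41.4 to 53.6). Neural-gated cells, which passed the sort but should lack a myeloid programme, held 50.2 CPM and 54.1 CPM of Ifitm2 and 8.74 CPM and 9.96 CPM of Ifitm3. Ifitm2 in microglia-gated cells was therefore not above the neural level. Free RNA was not measured, so low expression and background cannot be told apart there.

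Ifi27l2a, a small membrane protein gene induced by interferon, followed the same order. Its level was 2692 CPM (2181 to 3287) in control and 2057 CPM (1731 to 2426) in stressed monocyte-gated cells. Border-associated cells held 481 CPM (407 to 565) in control and 969 CPM (825 to 1132) in stressed cells. Microglia-gated cells held 29.9 CPM (22.0 to 39.6) and 36.1 CPM (31 to 41.7), against 1 and 0 UMIs in neural-gated cells. All neighbours in this order were separated by their intervals. The monocyte level was 90.1 and 57.0 times the microglia level, and 5.60 and 2.12 times the border-associated level.

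Bst2 was the most even member across the 3 gates. Microglia-gated cells held 126 CPM (110 to 145) in control and 145 CPM (135 to 156) in stressed cells. Border-associated cells held 268 CPM (213 to 332) and 236 CPM (168 to 323), and monocyte-gated cells 252 CPM (115 to 479) and 394 CPM (260 to 573). Both were above microglia, except that the control monocyte interval, from 9 UMIs, reached into the microglia range. Border-associated and monocyte-gated cells overlapped in both libraries. Neural-gated cells held 4.37 CPM and 9.96 CPM, so Bst2 was above the neural level in all 3 gates.

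**Figure D1:**
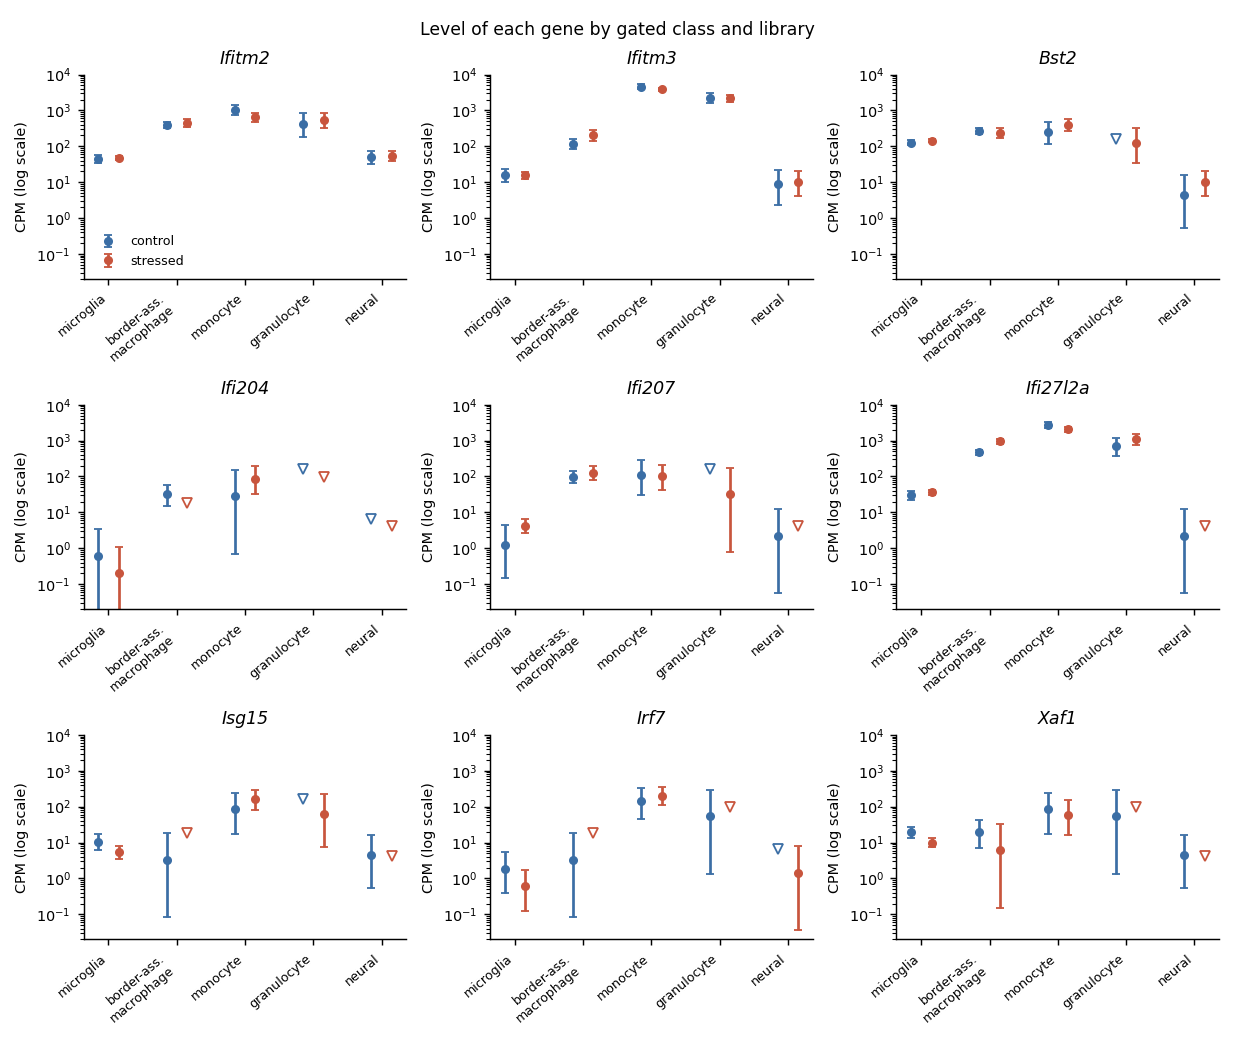
Levels of the 9 genes, as CPM on a log axis, in 5 gated classes of the control and stressed libraries. Points are sums in CPM, bars are 95% counting intervals, and open triangles mark the level of 3 counts where no UMI was seen. Ifitm3 is at 15.54 CPM in stressed microglia-gated cells and at 4599 CPM in control monocyte-gated cells. The stressed neural-gated level of Ifitm3, 9.96 CPM, has an interval that overlaps the microglia one. Bst2 stays between 126 and 394 CPM in the macrophage and monocyte gates.

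Ifi207, of the IFI200 family, was a gene of border-associated cells and monocytes here. Border-associated cells held 30 UMIs, or 96.9 CPM (65.3 to 138), in the control and 21 UMIs, or 127 CPM (78.8 to 195), in the stressed library. Monocyte-gated cells held 4 and 7 UMIs, or 112 CPM (30.6 to 287) and 102 CPM (41.1 to 210), which overlap the border-associated values. Microglia-gated cells held 2 UMIs in control and 21 UMIs in stressed cells, 1.25 CPM and 4.18 CPM. The border-associated level was 30.4 times the microglia level in the stressed library. Ifi204, its neighbour, was sparser: 10 UMIs in control and 0 in stressed border-associated cells, 1 and 6 UMIs in monocyte-gated cells, and 1 UMI in each library's microglia. Up to 3 counts, or 18.2 CPM, would be allowed by the 0 in stressed border-associated cells.

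Mndal and Ifi202b of the same family were also lowest in microglia, and Mndal was highest in monocyte-gated cells. Mndal stood at 0 UMIs and 1.79 CPM in microglia-gated cells, 93.6 CPM and 66.7 CPM in border-associated cells, and 477 CPM and 481 CPM in monocyte-gated cells. Ifi202b stood at 61.3 CPM and 48.5 CPM in border-associated cells, from 19 and 8 UMIs. In monocyte-gated cells it stood at 140 CPM and 175 CPM, from only 5 and 12 UMIs, so its order between these gates is uncertain. Aim2, the cytosolic DNA sensor of the family, was not higher outside microglia, with 60.4 CPM and 56.0 CPM in microglia-gated cells, 45.2 CPM and 30.3 CPM in border-associated cells, and 56.1 CPM and 14.6 CPM in monocyte-gated cells. In microglia, 4 of these low genes had more UMIs in the stressed library: Ifi207 2 and 21, Ifi211 1 and 24, Ifi202b 1 and 26, and Mndal 0 and 9. Elsewhere in the family Ifi204 had 1 and 1, Ifi203 0 and 1, and Ifi206, Ifi209 and Ifi214 1 and 0 each. The gate held 1605969 control and 5019279 stressed UMIs. Ifi211, Ifi202b and Mndal were named by their highest microglia level, which was the stressed one, so the 4 are a description and support nothing on their own. Per UMI of the gate the log2 ratio was 2.94 (0.32 to 8.30) for Ifi211, 3.06 (0.45 to 8.41) for Ifi202b and 1.75 (−0.28 to 4.89) for Ifi207. All of them stayed under 10 CPM in both libraries, and the control sums hold 0 to 2 UMIs.

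Isg15, Irf7 and Xaf1 were rare members too. Isg15 had 3 and 11 UMIs in monocyte-gated cells, 84.1 CPM (17.3 to 246) and 160 CPM (80.1 to 287). In microglia-gated cells it had 17 and 27 UMIs, 10.6 CPM (6.17 to 16.9) and 5.38 CPM (3.54 to 7.83), and in border-associated cells 1 and 0 UMIs. Irf7 had 5 and 14 UMIs in monocyte-gated cells, 140 CPM (45.5 to 327) and 204 CPM (112 to 343), against 3 and 3 UMIs in microglia-gated cells. Both were thus above microglia in monocytes and near absent from border-associated cells, where Irf7 had 1 and 0 UMIs. Xaf1 had 31 and 50 UMIs in microglia-gated cells, 19.3 CPM (13.1 to 27.4) and 9.96 CPM (7.39 to 13.1). Its monocyte sums were 3 and 4 UMIs and its border-associated sums 6 and 1 UMIs, so the control order of the gates is within counting error.

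The list's counts outside microglia are set beside those of all genes. A gene was counted when it was at least 2 times higher with at least 5 UMIs, among genes with at least 10 UMIs in both gates together. In the control library 3 of the 6 measured members were higher in monocyte-gated than in microglia-gated cells, and 2.91% of 8724 genes were. In the stressed library 7 of 8 were, against 3.87% of 10487 genes. For border-associated over microglia-gated cells the counts were 6 of 8 in the control, against 6.06% of 9022 genes, and 4 of 7 in the stressed library, against 4.36% of 10496 genes. Control Ifi204 (10 and 1 UMIs) and Ifi207 (30 and 2) reached 10 UMIs only through the border-associated gate, where they were high. Irf7 (14 and 3) did so through the stressed monocyte gate. The members were also chosen with results of these data known, so these counts are a description and support nothing on their own. The members' median log2 ratio for monocytes was 3.77 and 4.75, and that of all genes 1.25 and 0.88, where sums of 0 set to 3 counts lift the medians. For border-associated cells the members' medians were 3.05 and 3.25, and those of all genes −0.14 and 0.19. A wider list of interferon targets moved less: 2 of 27 and 14 of 36 of its measured genes were higher in monocyte-gated cells, and 11 of 30 and 6 of 35 in border-associated cells.

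To compare cells at one depth, each cell was thinned to 1000 UMIs. Ifitm3 was then seen in 14 of 15 control monocyte-gated cells (93.3%) and 11 of 16 stressed ones (68.8%), in 8.75% and 10.0% of border-associated cells, and in 0.677% and 1.36% of microglia-gated cells. Neural-gated cells held it in 1.09% and 0.649%, with intervals that overlap those of microglia. The microglia share is thus not above the neural one, although single microglia-gated cells held up to 13 Ifitm3 UMIs. The Bst2 share was 8.97% (interval 6.79 to 11.6, 53 of 591) in control and 13.8% (11.9 to 16.0, 153 of 1105) in stressed microglia-gated cells. It was 0 of 183 control neural-gated cells, which allows up to 1.64%, and 0.649% of stressed ones. Unthinned, the Bst2 shares were 22.6% at a median of 2227 UMIs and 42.0% at a median of 3986 UMIs. The thinned Bst2 share still differed between libraries by slightly more than the counting intervals, although the CPM intervals overlapped. For Ifitm2 the microglia shares were 3.21% (1.95 to 4.98) and 3.26% (2.29 to 4.48). They overlapped the neural shares of 4.92% (2.27 to 9.13) and 3.90% (1.44 to 8.29). At 2000 UMIs per cell the Ifitm2 shares were 6.53% and 8.55% in microglia-gated and 2.99% and 9.24% in neural-gated cells, again with overlapping intervals.

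**Figure D2:**
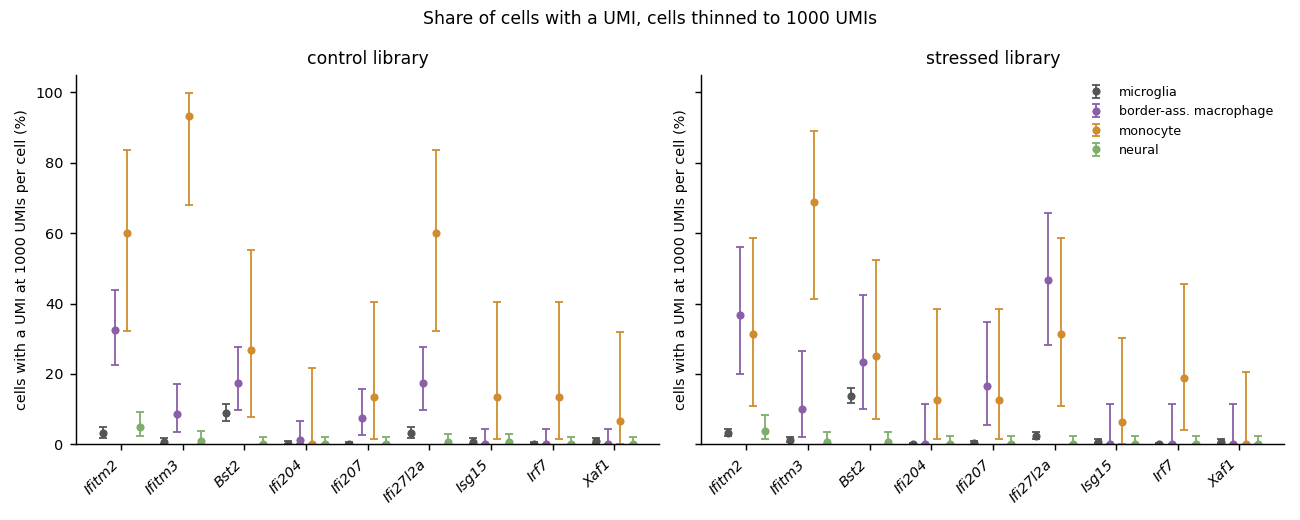
Percent of cells with at least 1 UMI of each gene after thinning to 1000 UMIs per cell, in 4 gated classes of both libraries, with exact Clopper-Pearson 95% intervals. Ifitm3 reaches 93.3% and 68.8% in monocyte-gated cells and stays at 0.677% and 1.36% in microglia-gated cells, and Bst2 reaches 8.97% and 13.8% in microglia-gated cells.

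The monocyte gate was mixed, which was seen only after the values were known. In 2 control and 6 stressed monocyte-gated cells Cd74, the MHC class II invariant chain, had more UMIs than Lyz2, a lysozyme of monocytes and macrophages. The remaining 13 control and 10 stressed cells all held Ifitm3 and all held Ifitm2. Their Ifitm3 UMIs per cell ran from 4 through a median of 13 to 20 in control and from 11 through 26 to 41 in stressed cells. Summed, they had 5068 CPM (4311 to 5920) and 5361 CPM (4721 to 6064) of Ifitm3, which overlap. Among the cells with more Cd74, 1 cell in each library held Ifitm3, with 5 and 10 UMIs, and Irf7, Isg15 and Xaf1 had 0 UMIs. The lower share of Ifitm3-positive cells in the stressed gate thus went with more cells of the Cd74 kind.

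Ifi27l2a varied more between monocytes than Ifitm3 did. It was seen in 10 of the 13 control and 5 of the 10 stressed cells outside the Cd74 kind, with sums of 3028 CPM and 2924 CPM. Single cells gave 37 of the 96 control UMIs and 65 of the 141 stressed UMIs in the whole gate. At 1000 UMIs per cell, 9 control and 5 stressed monocyte-gated cells held both Ifitm genes, where the product of the single shares gives 8.4 and 3.44 cells. In border-associated cells 2 and 2 cells held both, where the shares give 2.28 and 1.1, and in microglia none did, where they give 0.129 and 0.489. In border-associated and microglia-gated cells these counts are near what the single shares alone give. In monocyte-gated cells 0 cells held Ifitm2 without Ifitm3, so the counts there are the highest that the Ifitm2 shares allow. Before thinning, all monocyte-gated cells outside the Cd74 kind held both genes.

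**Figure D3:**
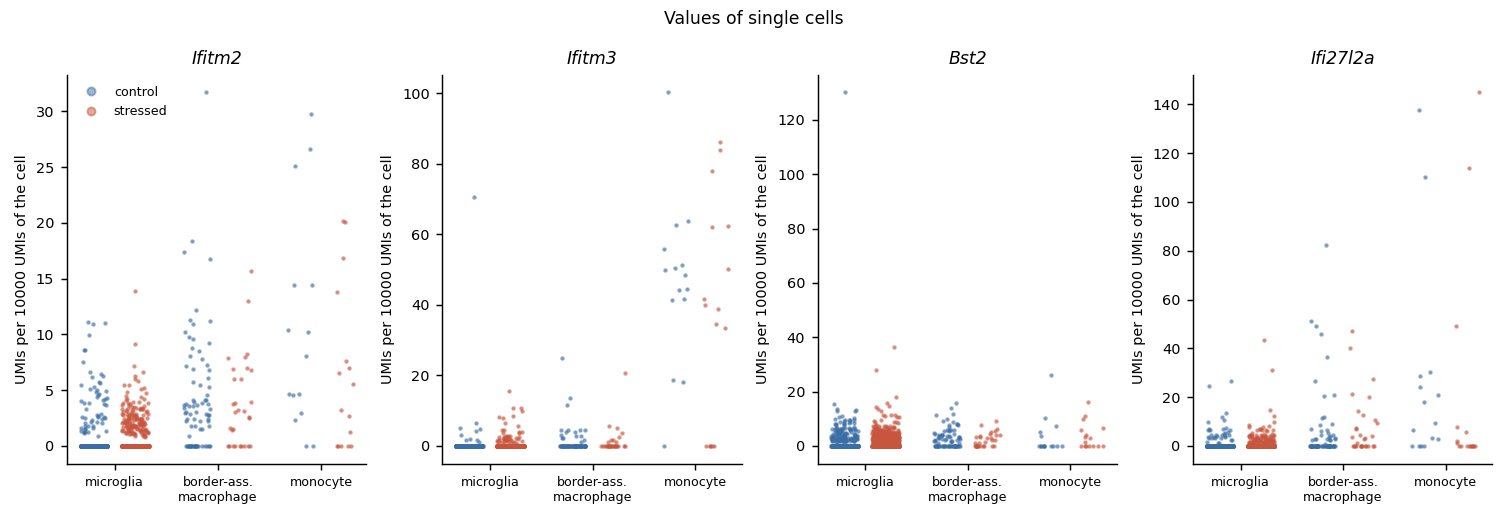
UMIs per 10000 in single cells for Ifitm2, Ifitm3, Bst2 and Ifi27l2a, by gate and library; each point is 1 cell. Most monocyte-gated cells lie above 0 for Ifitm3, with control cells reaching 100.4 per 10000, while Ifi27l2a reaches 138 and 145 per 10000 in single control and stressed monocyte-gated cells and most microglia-gated cells lie at 0.

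Among border-associated cells the clearest difference between the libraries was in Ifi27l2a. From 481 CPM in control and 969 CPM in stressed cells, its log2 ratio was 1.01 (interval 0.68 to 1.34). At 1000 UMIs per cell 14 of 80 control cells had a UMI of it (17.5%, 9.91 to 27.6), as did 14 of 30 stressed cells (46.7%, 28.3 to 65.7). A single cell gave 29 of 149 control UMIs and another 59 of 160 stressed UMIs. Without both cells the levels were 395 CPM and 662 CPM, a log2 ratio of 0.75 (0.35 to 1.14). Summed over cells thinned to 1000 UMIs the log2 ratio was 0.38, under 1.5 times. Its relative Ifi27, counted apart, stood at 61.3 CPM and 127 CPM in these cells. Without its top cell in each library Ifitm3 was 97.7 CPM and 83.9 CPM, log2 −0.22 (−1.28 to 0.76), so the log2 ratio of 0.79 with all cells is not a difference of many cells. Ifitm2 (log2 0.19), Bst2 (−0.18), Ifi207 (0.39) and Xaf1 (−1.68, on 6 and 1 UMIs) had intervals that held 0. Ifi204, with 10 and 0 UMIs, was lower in the stressed cells, by an interval whose upper limit was log2 −0.26. Without the top cell in each library it had 8 and 0 UMIs and an upper limit of log2 0.15, so that interval held 0.

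Monocyte-gated cells gave wider intervals from 35661 control and 68555 stressed UMIs. Ifitm2 was lower in the stressed cells, with a log2 ratio of −0.69 (−1.36 to −0.02). Without the cell with most Ifitm2 in each library it was −0.70 (−1.45 to 0.06), which holds 0. Ifitm3 had −0.26 (−0.55 to 0.03). The other ratios ran from −0.53 for Xaf1 to 1.64 for Ifi204, with intervals that held 0. For Ifi27l2a the interval only just did, at −0.39 (−0.77 to 0.001). Without the cell with most Ifi27l2a in each library it was 1789 CPM and 1186 CPM, log2 −0.59 (−1.10 to −0.08), an interval under 0. The number of Cd74-rich cells differed between the libraries, and its part in the lower Ifitm2 and Ifi27l2a was not tested. In the cells outside the Cd74 kind Ifitm2 stood at 1179 CPM and 911 CPM.

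**Figure D4:**
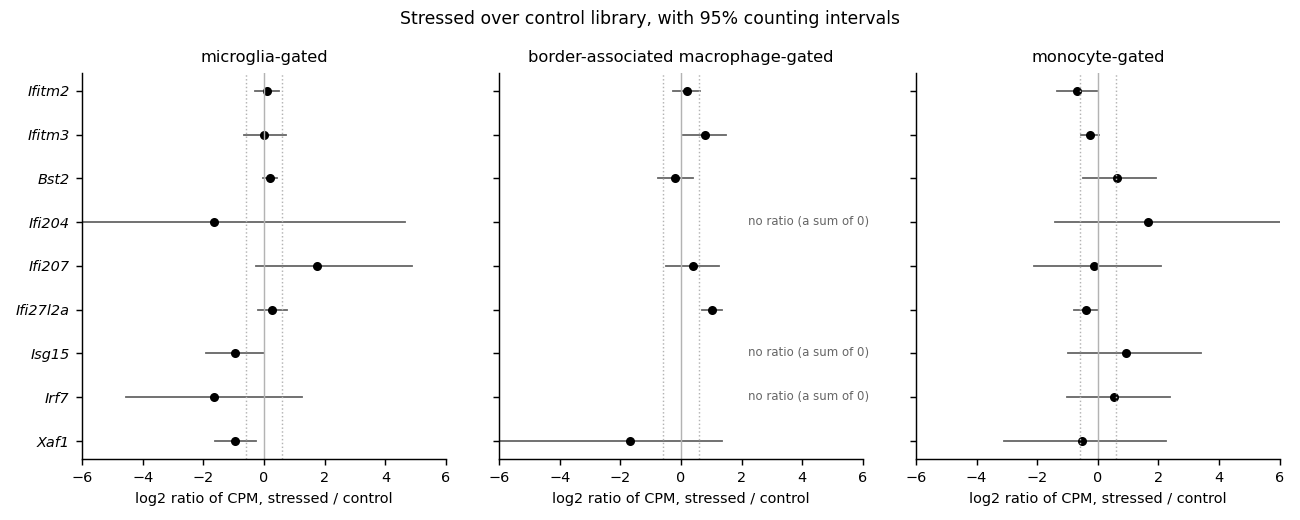
Log2 ratio of CPM, stressed over control, for each gene in microglia-, border-associated macrophage- and monocyte-gated cells, with 95% counting intervals drawn within ±6 and dotted lines at 1.5 times. Ifi27l2a in border-associated cells lies at 1.01 with an interval above 0, and the best measured gene in microglia, Bst2, lies at 0.20.

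In microglia-gated cells the interferon-linked genes showed little difference between the libraries. Of the 9 members, 6 reached 10 CPM in a library. None was at least 1.5 times higher in the stressed library, and 2 were at least 1.5 times lower, Isg15 and Xaf1. Both of these reached 10 CPM only in the control, so the count is a description and supports nothing on its own. Of 7551 genes, 3.44% were higher and 8.25% lower by that rule. The members' median log2 ratio was 0.05, and that of all 7551 genes was −0.09. Bst2 had a log2 ratio of 0.20 (−0.03 to 0.43), Ifi27l2a 0.27 (−0.20 to 0.76), Ifitm2 0.09 (−0.29 to 0.50) and Ifitm3 0.00. Scaling by edgeR's TMM or by DESeq2's size factors raised every log2 ratio by 0.11 and left both member counts as they were. The split over all genes moved with it: 260 genes were higher and 623 lower past 1.5 times without scaling (29.4% higher), and 421 and 389 with TMM (52.0% higher).

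Xaf1 was 19.3 CPM in control and 9.96 CPM in stressed cells, with a log2 ratio of −0.95 (−1.63 to −0.26). Without the cell with most Xaf1 in each library it was 14.4 CPM and 9.37 CPM, log2 −0.62 (−1.37 to 0.17). At 1000 UMIs per cell the shares with a Xaf1 UMI were 0.846% and 0.724%, and without the 1% of cells with most Xaf1 the log2 ratio was 0.63. Isg15 was 10.6 CPM in the control and 5.38 CPM in the stressed library, log2 −0.98 (−1.90 to −0.01). Of its 17 control UMIs, 12 lay in 1 cell. Without the cell with most Isg15 in each library it was 3.12 CPM and 3.99 CPM, log2 0.36 (−1.10 to 2.13). The Isg15 call thus rests on 1 control cell. Xaf1 stayed lower without its top cells but not without the top 1%, a trim that removes more of the few control cells with Xaf1, and was −0.12 with a gate of 5 UMIs and 4 times.

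That control cell carried a broad set of interferon target transcripts. It had 1843 UMIs and 908 genes, 7 UMIs of the microglia panel, none of the border-associated panel and 2 of the monocyte panel. Its doublet score was 0.0351, against a median of 0.0665 for control microglia-gated cells. It held 55 UMIs of the 9 genes, and the next control microglia-gated cell held 9: Bst2 had 24, Ifitm3 13, Isg15 12, Irf7 3 and Xaf1 3 UMIs. Of 69 other interferon target genes it held 21, against a median of 2 and a next highest of 9 in the other control microglia-gated cells. Among these were Ifi35 and Psmb8 with 3 UMIs each, and Mx1, Ifi44, Oas1a and Oasl1 with 2 each. The 2 Mx1 and 2 Ifi44 UMIs were all that the 610 control microglia-gated cells had of these genes. It also held all 3 control Irf7 UMIs and 13 of the 25 control Ifitm3 UMIs. Bst2 without its top cells was 112 CPM and 143 CPM, log2 0.36 (0.12 to 0.60), and Ifitm3 7.48 CPM and 13.2 CPM, log2 0.82 (−0.08 to 1.84).

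No such cell was seen among the 1106 stressed microglia-gated cells. The one with most member UMIs held 28 in 11227 UMIs, 12 of Ifitm3 and 9 of Ifi27l2a, none of Isg15, and 11 of the 69 other targets; the most other targets in any of the rest was 14. The 27 stressed Isg15 UMIs were spread over 20 cells with at most 7 in a cell. A count of 0 in 1106 cells allows up to 3 cells, so the control count of 1 in 610 shows no difference between the libraries. The monocyte with most member UMIs, a stressed cell, held 115, of which 65 were Ifi27l2a and 28 Ifitm3, and 22 of the 69 other targets. Stressed monocyte-gated cells had a median of 10.5 of these targets and a next highest of 17. Plac8, which is among the targets, is also a marker of the monocyte panel.

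Over all cells of a gate, members other than the Ifitm genes were seen together about as often as their single shares give. At 1000 UMIs per cell, 2 of 591 control microglia-gated cells held at least 2 of Isg15, Irf7, Ifi27l2a, Bst2, Xaf1, Ifi204 and Ifi207, and the product of the single shares gives 2.9 cells. In the stressed library 8 of 1105 did, and the shares give 7.12. Border-associated cells had 4 of 80 and 5 of 30, where the shares give 4.50 and 5.68. Monocyte-gated cells had 5 of 15 and 6 of 16, where the shares give 5.92 and 4.59.

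The machinery of the pathway was compared in the microglia of both libraries. The lists were chosen with results of these data known and overlap in part. Of 19 interferon genes, 18 had 0 UMIs, and Ifnk had 1 and 3. Of the 6 receptor genes, 5 were measured and none passed 1.5 times: Ifngr1, of the interferon-gamma receptor, stood at 291 CPM and 257 CPM, and Ifnar2, of the type I receptor, at 80.9 CPM and 95.03 CPM. Of 12 kinases and factors, 10 were measured and 1 was higher, Irf9, with 6.23 CPM and 13.1 CPM, log2 1.08 (0.11 to 2.2); it was named after its value was seen. Irf8, a factor of macrophage identity, stood at 170 CPM and 160 CPM. Irf3, which switches on interferon genes, was 51.1 CPM and 34.1 CPM, log2 −0.58 (−0.97 to −0.19), just under 1.5 times lower. Irf2, a repressor of interferon targets, was 81.6 CPM and 59.0 CPM, log2 −0.47 (−0.77 to −0.16). Of 16 nucleic acid sensor genes, 9 were measured and none passed: Unc93b1, which carries endosomal Toll-like receptors, stood at 367 CPM and 383 CPM, and Tlr7 at 59.2 CPM and 58.4 CPM.

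Genes of Isg15 conjugation were low, and 2 of 4 were measured. Herc6, a ligase for Isg15, was lower at 11.8 CPM and 6.77 CPM, log2 −0.80 (−1.66 to 0.09). Herc6 reached 10 CPM only in the control library, where it was high, and its interval held 0, so its call supports nothing on its own. Uba7, the activating enzyme of Isg15, stood at 33.0 CPM and 30.3 CPM. Of 7 genes that restrain the response, 3 were measured and none passed. Of 69 other targets, 23 were measured, 3 were higher and none lower, with a median log2 ratio of −0.02. The higher ones, named after their values were seen, were Slfn2 with 5 and 59 UMIs, Irf9 again, and Parp14 with 11 and 61 UMIs, log2 0.83 (−0.11 to 1.90). All 3 reached 10 CPM only in the stressed library, where they are high, so their count supports nothing on its own. Of all genes tested, 3.44% were higher and 8.25% lower. The best measured targets did not pass: B2m stood at 780 CPM and 731 CPM, Ly6e at 134 CPM and 137 CPM, and Psmb8, an immunoproteasome subunit, at 85.9 CPM and 99.4 CPM. Ifi27, the relative of Ifi27l2a, was higher at 19.9 CPM and 30.9 CPM, log2 0.63 (0.08 to 1.23).

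**Figure D5:**
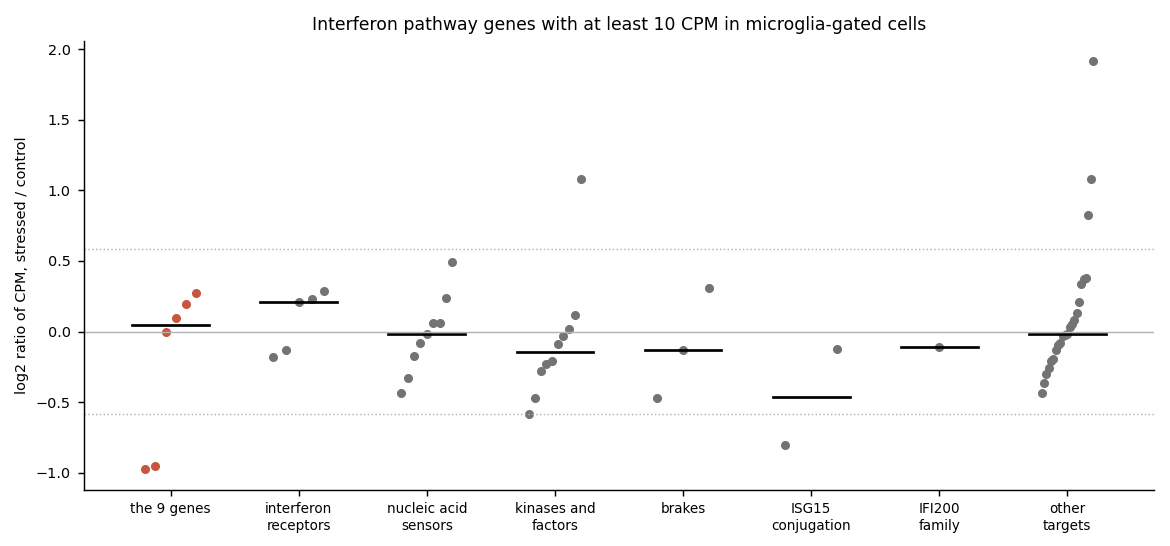
Log2 ratios of CPM, stressed over control, in microglia-gated cells for the measured genes of each pathway list and the 9 members; each point is a gene with at least 10 CPM in a library and the bar is the list's median. Medians are 0.05 for the members, 0.21 for the receptors, −0.15 for the kinases and factors and −0.02 for the other targets, and Irf9 appears in 2 of the lists.

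The genes most like each member were ranked by Pearson r of log2(CPM + 10) over 8 sums, the microglia, border-associated, monocyte and neural gates in both libraries, among 10035 genes. The sums share libraries and few classes, so r describes the pattern only. Ifitm3 went with Lgals3 (r = 0.99), Flna and Slk, and Ifitm2 with Tagln2 (r = 0.98), Rpsa and S100a4. Ifi207 went with Dok2 (r = 0.98), Msr1 and Tgfbi, and Ifi27l2a with Tgfbi, Gsn and Crip1. Isg15 went with Cfb (r = 0.99), S100a8 and H2-DMa, and Xaf1 with Cdc42se1 (r = 0.98), Map3k1 and Lamtor4. Irf7 went with Napsa, a gene of the monocyte gate, Mta3 and H2-Aa. In stressed monocyte-gated cells H2-Aa had 72 UMIs in the Cd74-rich cells, which held 0 UMIs of Irf7. The other cells held 14 Irf7 UMIs and 0 of H2-Aa, so that match is one of gate sums and not of single cells.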

How the data were processed

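Droplet single-cell RNA-seq libraries (10x Genomics 3′, chemistry version 3) were measured for 1 control and 1 stressed pool. The authors deposited unnormalized UMI counts of each gene in 1156 control and 1467 stressed barcodes. Per the submitters' processing notes, the tools included Cell Ranger 3.0.0, STAR and Seurat 2.4, whose settings are not given in the sources used here.

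The members and gene lists were chosen with earlier results of these data known. Cells under 500 genes or over 10% mitochondrial UMIs were removed. A cell was gated to the marker panel with most UMIs, if it had at least 3 and 2 times any other panel. The monocyte and granulocyte panels were joined for this step and split by the larger sum. Doublets were kept. Counts were summed per gate and library (2833015 and 6582188 UMIs in all before filtering) and divided by the gate's total. Sums have exact Poisson, ratios exact conditional binomial and shares exact Clopper-Pearson intervals, and ratios took 3 counts for a sum of 0. The steps were tested on simulated data.

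The text names all 9 members, up to 4 genes of each list with the highest microglia CPM, and 3 pattern neighbours of each member; those of Bst2 and Ifi204 are not reported here. Exceptions, chosen after their values were seen, are Irf9, Slfn2, Parp14, Ifi203, Ifi206, Ifi209, Ifi214, the interferon targets of 1 cell, Cd74 and Lyz2. Alternatives were thinning, stricter filters and gates, Scrublet doublet removal, Leiden clusters (scanpy 1.11.5), cell subsets, CPM minimums, and edgeR 4.0.16 and DESeq2 1.42.0 scaling. Tools were Python 3.11.15, scipy 1.17.1, R 4.3.3 and matplotlib 3.10.9.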

Additional observations from a re-analysis of the deposited data

Results flagged for a closer look

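Cells that met no gate were not used in the comparisons, yet they held some members above the intervals of both the microglia and the neural gates of their library. The 126 ungated control cells held Ifitm2 at 157 CPM, Ifitm3 at 210 CPM and Ifi27l2a at 107 CPM. The 79 ungated stressed cells held Ifitm2 at 126 CPM and Ifitm3 at 85.6 CPM. Of these cells, 98 and 47 had fewer than 3 UMIs of every panel, and 28 and 32 had too little distance between panels.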

How the results depend on the processing

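Of 663 values recomputed under 21 settings, 581 stayed within their interval or count limit, 72 moved and 10 were counted as reversed. That count took only values reported past 1.5 times between libraries or 2 times between gates, so other ratios changed sign too. Bst2 in control monocyte-gated over microglia-gated cells, log2 0.998 as reported, ran from −0.918 to 2.01. Stressed over control, Ifi27l2a in microglia-gated cells (0.271) ran from −0.581 to 1.05. In border-associated cells Bst2 (−0.181) ran from −0.401 to 0.830 and Ifi207 (0.394) from −0.585 to 0.530. Each condition had 1 library, so leaving out a replicate was impossible. No paired analysis was possible because the groups have 1 sample each.

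In microglia, the count of members at least 1.5 times higher became 2 (and 1 lower, of 5) with a filter of 1000 genes and 5% mitochondrial UMIs, 1 (and 0 lower, of 5) with a gate of 5 UMIs and 4 times, 1 (and 1 lower, of 5) in cells with Xist and no Y-linked UMI, 1 without cycling cells, and 1 (and 4 lower, of 9) with no CPM minimum. None was lower once the top 1% of cells for each gene were left out (3 measured) or with a 50 CPM minimum (1 measured). Without the cell with most member UMIs in each library, chosen after seeing the data, 1 was higher and 1 lower of 5, and Isg15 had log2 0.79. The Isg15 ratio also changed sign with the stricter filter (2.60) and the stricter gate (0.43), Xaf1 without the top 1% (0.63), and Ifi207 with thinned cells (−0.90) and clusters (−0.066). The members' median ran from −0.32 to 0.42.

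Thinned cells gave 4 members higher in stressed monocytes than microglia and 3 higher in control border-associated cells, and clusters gave 5 higher in control monocytes. With the stricter filter Isg15 was 2.02 for control border-associated over microglia-gated cells and −0.091 for stressed over control monocyte-gated cells. Without granulocyte panel UMIs, an alternative chosen after seeing the data like the removal of single cells, the latter was −0.22. Ifitm3 in border-associated cells was −0.22 without its top cells. The causes were not tested. At the control microglia depth 1 UMI is 0.623 CPM, and at the control monocyte depth 28.0 CPM, which limits Irf7, Isg15, Xaf1 and Ifi204.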

Other observations

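Members differed between states of microglia-gated cells, given here as values. Ifi27l2a was higher in cells with cell cycle transcripts than in the rest, 55.8 CPM (interval 35.7 to 83.0) and 20.4 CPM (13.1 to 30.4) in control cells, and 48.2 CPM (37.6 to 60.8) and 31 CPM (25.5 to 37.4) in stressed cells. It was lower in cells with a UMI of the chemokine genes Ccl3 or Ccl4, at 17.3 CPM and 25.8 CPM, than in cells without, at 41.0 CPM and 47.9 CPM. Ifi207 went the other way: 20 of its 21 stressed microglia UMIs lay in the 489 cells with a chemokine UMI, 7.47 CPM (4.56 to 11.53) against 0.43 CPM (0.01 to 2.38) in the rest. Ifitm2 in stressed cells was higher with cell cycle transcripts, 65.8 CPM (53.4 to 80.3) against 39.5 CPM (33.2 to 46.6), and with a chemokine UMI, 55.99 CPM (47.4 to 65.7) against 37.2 CPM (29.8 to 45.9). Control intervals for Ifitm2 overlapped in both splits. Deeper cells are more likely to hold a chemokine UMI; the CPM values are per UMI of the cells summed.

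The granulocyte gate held 12 control and 6 stressed cells. The stressed ones had 0 UMIs of Ngp, Camp, Ltf, Lcn2 and Retnlg. They held S100a8 of the granulocyte panel at 18701 CPM in 6 of 6 cells and S100a9 at 1429 CPM in 4. The monocyte markers Ccr2, at 476 CPM, and Plac8, in 6 of 6 cells, were also present, so the markers are mixed there. Ifitm3 stood at 2207 CPM (1584 to 2994) in control and 2159 CPM (1677 to 2737) in stressed cells of this gate. They held Ifi27l2a at 700 CPM and 1111 CPM. Bst2 had 0 UMIs in the control granulocyte-gated cells, which allows up to 161 CPM, and stood at 127 CPM in the stressed ones. Ifitm6, named after its values were seen, stood at 393 CPM and 379 CPM in monocyte-gated cells and at 0 and 1 UMIs in microglia-gated cells.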
